A study of Homo sapiens with 8 samples.

Results

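Transcripts of the ETV transcription factors and of genes that restrain ERK signalling were followed on 8 whole-transcript arrays of MUG-Chor1 and U-CH1, 2 cell lines established from chordoma, a rare axial bone tumour with features of the embryonic notochord. The set held ETV1, ETV4, ETV5, SPRY1, SPRY2, SPRY4, DUSP4, DUSP5, DUSP6 and PHLDA1, genes known as transcriptional output of FGF and ERK signalling. Each was read from the probe set whose only symbol in the platform annotation was that gene, so 10 of 22395 genes named in this way were described. Every one of the 10 had 1 such probe set and exceeded 2.57 (log2), the median over all probe sets and arrays, on 1 array or more, so all 10 were among the 16986 genes tested. The arrays comprised 1 of MUG-Chor1 and 1 of U-CH1 given 10 ng/mL human recombinant TNF-α, 3 times a week for 1 week, and 3 untreated controls of each line. All cells grew as monolayers on gelatin in medium with serum, which itself carries growth factors. The arrays do not measure ERK activity.

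Growth factor receptors such as those for FGF and EGF act through RAS, RAF and MEK on the kinase ERK. ERK releases ETV1, ETV4 and ETV5, the PEA3 group of ETS transcription factors, from the repressor Capicua (CIC), and these factors then drive growth and morphogenesis programmes. The same signal induces its own brakes, the Sprouty proteins at the level of receptors and RAS and dual-specificity phosphatases at the level of ERK, so their transcripts are widely read as a gauge of ERK output. In vertebrate embryos FGF signalling sustains brachyury (TBXT) in notochord precursors, and EGF receptor signalling is a drug target in chordoma.

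Both lines carried the marks of chordoma and the TNF arrays those of TNF. TBXT lay between 9.40 and 9.46 in MUG-Chor1 controls and between 9.14 and 9.75 in U-CH1 controls. The leukocyte gene PTPRC lay between 0.93 and 1.23 on all 8 arrays, but CD68, another leukocyte marker, lay between 7.67 and 9.17. TNFAIP3, an NF-kB feedback gene, read 8.03 on the MUG-Chor1 TNF array against 4.65, 5.36 and 5.58 in its controls, and 8.44 on the U-CH1 TNF array against 4.75, 4.99 and 4.81. Array medians ranged from 2.52 to 2.63. The labels do not state whether a line's controls were separate cultures. P-values therefore measure only the spread between these arrays, which may be technical. The labels give no processing batch, so a batch effect on a TNF array and TNF itself cannot be told apart. Each TNF group is 1 array, so its tests borrow the spread of the 6 controls and assume that the TNF array varies alike.

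ETV1 was the member that passed the test between TNF and control arrays in both lines. It read 2.84 (log2) on the MUG-Chor1 TNF array, against 6.72, 6.29 and 6.77 in the MUG-Chor1 controls. The TNF value lay far below every control and close to the median of all deposited values. On the U-CH1 TNF array it read 5.68, against 7.13, 7.03 and 7.43 in the U-CH1 controls, again below all 3. The fall was 13.5-fold in MUG-Chor1 (log2 -3.75 ± 0.30, SE; limma adjusted p = 0.000149) and 2.85-fold in U-CH1 (log2 -1.51 ± 0.30, SE; adjusted p = 0.0411). Across both lines, with cell line as a term, it was 6.20-fold (log2 -2.63 ± 0.39, SE; adjusted p = 0.00755). Among the 16986 genes tested, the MUG-Chor1 change ranked 15 by size of fall and 14 by p. The U-CH1 change ranked 92 by size of fall and 177 by p. The U-CH1 call ended without any 1 of U-CH1 controls 1, 2 and 3, without MUG-Chor1 control 1 and when U-CH1 arrays were fitted alone, at adjusted p between 0.0522 and 0.0917, while the log2 value stayed between -1.60 and -1.40. In order of level, the U-CH1 controls (7.20 ± 0.21, SD, n = 3) and the MUG-Chor1 controls (6.59 ± 0.26, SD, n = 3) did not overlap but were not separated by the test (adjusted p = 0.0724), and the U-CH1 and MUG-Chor1 TNF arrays followed in that order. The MUG-Chor1 effect was larger than the U-CH1 effect by a log2 of 2.24 ± 0.42 (SE), with a 95% interval of the difference, MUG-Chor1 minus U-CH1, from -3.17 to -1.30. That difference missed the threshold at adjusted p = 0.0547.

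The promoters of ETV1 and DUSP6 are shown because these members had the largest differences between TNF and control arrays. RefSeq (GRCh38.p14) listed 6 ETV1 start sites. For ETV1, SPRY1, SPRY2, SPRY4, DUSP6 and PHLDA1, 14 windows of 300 bases were found, from 250 before to 50 after a start. All were searched on both strands for 2 Capicua octamers, TGAATGAA and TGAATGGA, the ETS motif CCGGAAGT and the AP-1 motif TGACTCA. The 2 octamers share their opening letters and cannot match at the same place. Of the 35116 promoters in the table, 1.65%, 1.03%, 4.14% and 4.95% held these motifs, in that order. The single match among the 14 windows was TGAATGGA in 1 ETV1 window, chr7:13991376-13991675 on the minus strand, on the sense strand of the gene and starting 125 bases before the start site. It is in capitals. The DUSP6 window, chr12:89352452-89352751 on the minus strand, held none of the 4 letter strings and is in lower case throughout. Other forms of these motifs were not searched, so a window without a match may still hold a site. ETV4, ETV5, DUSP4 and DUSP5 were not searched.
ETV1: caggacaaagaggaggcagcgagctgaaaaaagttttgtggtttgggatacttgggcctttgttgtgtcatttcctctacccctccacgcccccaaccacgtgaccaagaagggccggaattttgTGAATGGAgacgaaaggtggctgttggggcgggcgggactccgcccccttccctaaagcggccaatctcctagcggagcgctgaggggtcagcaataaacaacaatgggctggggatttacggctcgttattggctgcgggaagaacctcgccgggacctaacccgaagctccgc
DUSP6: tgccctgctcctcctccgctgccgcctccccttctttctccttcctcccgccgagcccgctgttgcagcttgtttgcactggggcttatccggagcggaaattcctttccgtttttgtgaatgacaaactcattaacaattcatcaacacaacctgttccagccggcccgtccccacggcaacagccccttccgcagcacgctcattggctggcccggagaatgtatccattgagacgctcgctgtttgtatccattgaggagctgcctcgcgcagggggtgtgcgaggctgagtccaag

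ETV4 and ETV5, the other PEA3 factors, did not pass the test with TNF in either line. ETV4 was at 2.43 with TNF in MUG-Chor1 and at 2.48, 2.45 and 2.44 in its controls, all below the median of all deposited values, so no order is drawn from them. In U-CH1 it read 2.71 on the TNF array, against 3.07, 2.67 and 3.16 in controls (log2 -0.25, 95% interval -0.87 to 0.36). ETV5 read 3.71 on the MUG-Chor1 TNF array, inside the range of its controls at 3.49, 3.83 and 3.64. On the U-CH1 TNF array it read 3.01, below the controls at 3.67, 3.75 and 3.48 (log2 -0.62, 95% interval -1.22 to -0.03; adjusted p = 0.433). In MUG-Chor1 the 95% intervals were -0.64 to 0.59 for ETV4 and -0.54 to 0.65 for ETV5, both above the interval of ETV1, -4.41 to -3.09. Changes between genes were not tested against each other.

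The Sprouty transcripts showed no change that passed the test. SPRY1 read 3.87 on the U-CH1 TNF array, above its controls at 3.23, 2.52 and 3.27 (log2 0.86, 95% interval 0.13 to 1.60; adjusted p = 0.350). In MUG-Chor1 all 4 SPRY1 values lay below the median of all deposited values, at 1.85 on the TNF array and 1.78, 1.53 and 1.77 in controls. SPRY2 read 4.74 on the MUG-Chor1 TNF array against 4.80, 4.50 and 4.82 in controls, and 4.52 on the U-CH1 TNF array against 4.51, 5.23 and 5.48. SPRY4 read 2.94 on the MUG-Chor1 TNF array against 2.75, 2.54 and 3.53, and 4.25 on the U-CH1 TNF array against 3.93, 4.02 and 4.32. For SPRY2 and SPRY4 the TNF value lay within the range of the controls in both lines. Their 95% intervals ran from -1.36 at the lowest (SPRY2 in U-CH1) to 0.99 at the highest (SPRY4 in U-CH1), so shifts of up to about that size remain possible.

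DUSP6, which encodes the cytoplasmic phosphatase that removes phosphate from ERK, differed most between TNF and control arrays of U-CH1. It read 3.80 on the U-CH1 TNF array, against 6.06, 6.02 and 7.42 in the U-CH1 controls. The TNF value was below every control, with control 3 apart from controls 1 and 2. The difference was 6.53-fold (log2 -2.71 ± 0.66, SE; 95% interval -4.17 to -1.24) and missed the threshold (adjusted p = 0.0918, unadjusted p = 0.00196). It passed when U-CH1 arrays were fitted alone (adjusted p = 0.0267) and without MUG-Chor1 control 3 (adjusted p = 0.0318). In MUG-Chor1 DUSP6 read 3.73 on the TNF array, with 2.64, 3.63 and 4.47 in controls, so the TNF value lay inside a control range of 1.83 (log2 0.15, 95% interval -1.32 to 1.61). The difference of the TNF effects, MUG-Chor1 minus U-CH1, was 2.86 ± 0.93 (SE; adjusted p = 0.369). The U-CH1 TNF array thus stood at 3.80, within the range of the untreated MUG-Chor1 arrays.

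DUSP4 and DUSP5, which encode nuclear phosphatases of ERK, did not pass in either line. DUSP4 read 3.75 on the MUG-Chor1 TNF array against 4.79, 4.11 and 3.76 in controls, and 2.97 on the U-CH1 TNF array against 3.03, 3.41 and 3.86. Both TNF values lay just below the lowest control (across both lines log2 -0.46, 95% interval -1.09 to 0.17; adjusted p = 0.492). DUSP5 read 4.19 on the MUG-Chor1 TNF array against 4.38, 5.13 and 3.91, and 3.10 on the U-CH1 TNF array against 2.88, 3.73 and 3.19, inside the control range in each line.

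PHLDA1, a pleckstrin homology-like domain gene whose transcript is used among readouts of MEK and ERK activity, was the member highest above its controls in MUG-Chor1. It read 6.18 on the MUG-Chor1 TNF array, against 4.75, 5.13 and 5.10 in the controls. The TNF value exceeded all 3 controls, but the difference of 2.27-fold (log2 1.18 ± 0.29, SE) missed the threshold at adjusted p = 0.0590. In U-CH1 it read 5.50 on the TNF array and 5.26, 5.50 and 5.65 in controls (log2 0.03, 95% interval -0.60 to 0.66). The difference of the effects, MUG-Chor1 minus U-CH1, was 1.15 ± 0.41 (SE; adjusted p = 0.428).

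**Figure D1:**
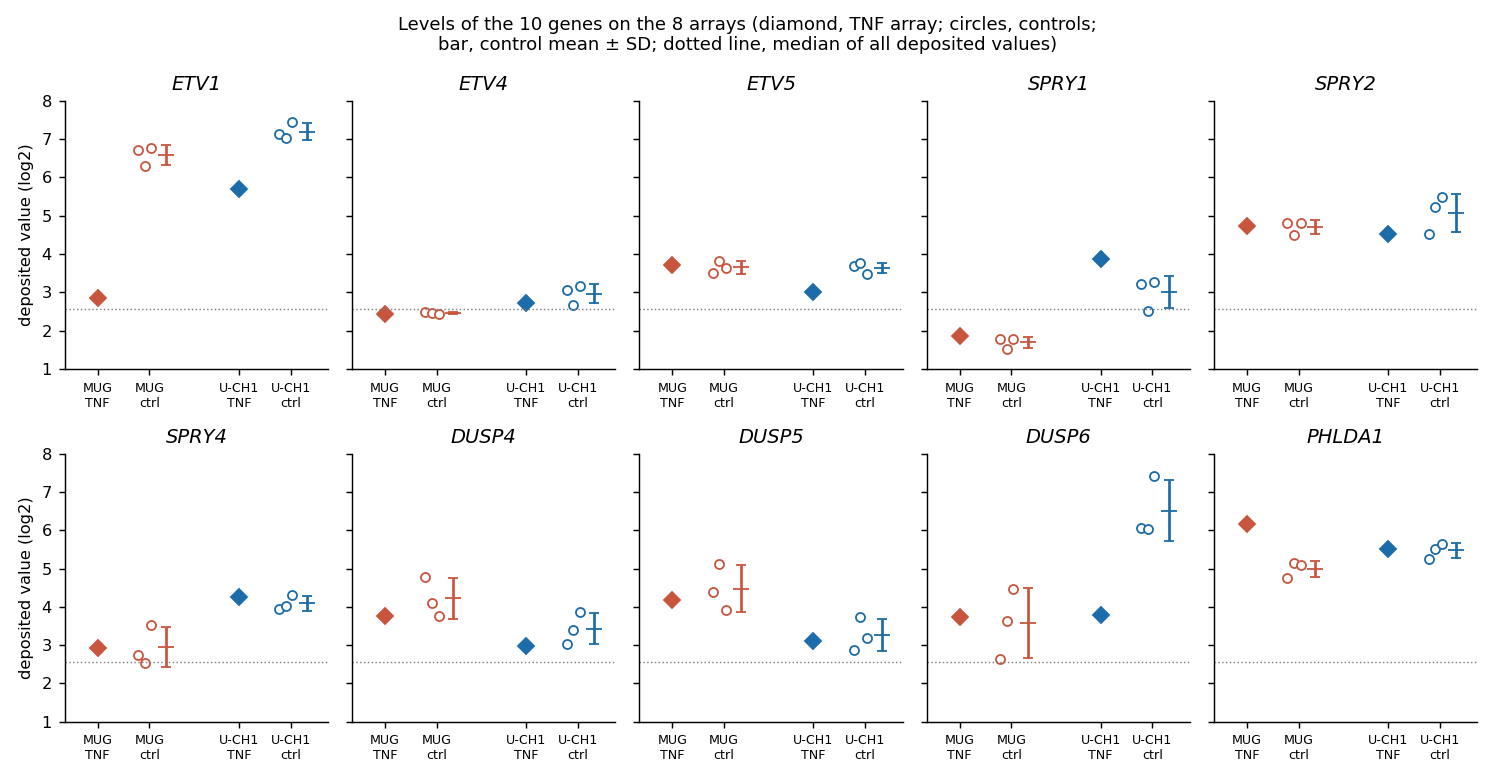
Deposited value (log2, vertical axis) of each of the 10 genes on the 8 arrays, with MUG-Chor1 in red and U-CH1 in blue, TNF arrays as diamonds, controls as circles and the control mean ± SD (n = 3) as a bar. ETV1 on the TNF arrays (2.84 in MUG-Chor1, 5.68 in U-CH1) lies below all controls of its line, and DUSP6 does so in U-CH1 (3.80).

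Counted together, 1 of the 10 members passed in each TNF comparison, ETV1 each time and downwards. The background of such calls among all genes tested was 2.88% in MUG-Chor1 (1.41% downwards, 1.47% upwards), 1.27% in U-CH1 (0.359% downwards, 0.913% upwards) and 2.48% across both lines (0.930% downwards, 1.55% upwards). At an unadjusted p under 0.05, 1 member was higher (background 7.45%) and 1 lower (background 5.17%) in MUG-Chor1. In U-CH1 1 was higher (background 6.99%) and 3 were lower (background 3.80%). The members had a median log2 difference of 0.02 for MUG-Chor1 and of -0.36 for U-CH1, against 0.06 and 0.04 over all genes tested. The MUG-Chor1 TNF array lay below all 3 controls for 3 members (background 23.9%) and above them for 2 (background 35.3%). These counts include ETV4 below and SPRY1 above, whose MUG-Chor1 values have no readable order, and without them they are ETV1 and DUSP4 below and PHLDA1 above. The U-CH1 TNF array lay below for 4 (background 23.4%) and above for 1 (background 30.8%). On the TNF arrays ETV1 and DUSP4 lay below all 3 controls in both lines (2 of 10, background 8.85%). For DUSP4 the distance to the lowest control was only -0.0035 (log2) in MUG-Chor1 and -0.057 in U-CH1, so its place in these counts is not firm. The count above them in both lines was 1 of 10 (background 15.0%), SPRY1, from whose MUG-Chor1 values no order is drawn. Of the 10 members, 0 passed the limma test of the difference of the TNF effects (background 0.530%, with 0.200% higher and 0.330% lower; by p before adjustment, with 0.05 as the limit, 2 higher against a background of 3.41% and 1 lower against 3.95%), and 1, ETV1, passed after quantile normalization (adjusted p = 0.0437) or with an intensity trend in the variance model (adjusted p = 0.0498).

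**Figure D2:**
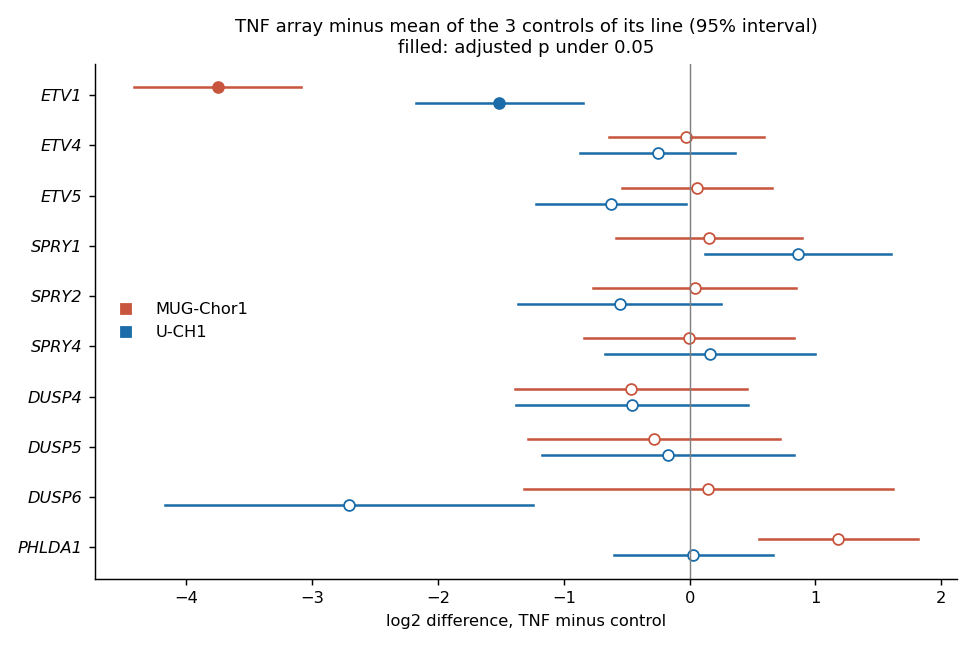
Log2 difference between the TNF array and the mean of the 3 controls of its line (horizontal axis) for the 10 genes, MUG-Chor1 in red above U-CH1 in blue, with 95% intervals from limma and filled points for an adjusted p under 0.05. ETV1 (-3.75 in MUG-Chor1, -1.51 in U-CH1) carries the filled points, and the interval of DUSP6 in U-CH1 runs from -4.17 to -1.24.

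The untreated lines differed from each other in 4 of the 10 members, 1 higher and 3 lower in MUG-Chor1, against a background of 18.9% of genes tested (10.3% higher, 8.57% lower). In MUG-Chor1 controls DUSP6 averaged 3.58 ± 0.92 (SD, n = 3), against 6.50 ± 0.80 (SD, n = 3) in U-CH1 controls, a 7.60-fold lower level (log2 -2.93 ± 0.47, SE; adjusted p = 0.00169). SPRY1 averaged 1.70 ± 0.14 in MUG-Chor1 controls and 3.01 ± 0.42 in U-CH1 controls (SD, n = 3 each), and passed as lower in MUG-Chor1 (log2 -1.31 ± 0.24, SE; adjusted p = 0.00333). All 3 MUG-Chor1 controls and U-CH1 control 2 (2.52) lay below the median of all probe sets, so the size of this difference is not exact. SPRY4 averaged 2.94 ± 0.52 in MUG-Chor1 controls and 4.09 ± 0.20 in U-CH1 controls (SD, n = 3 each; log2 -1.15 ± 0.27, SE; adjusted p = 0.0128). DUSP5 went the other way, at 4.47 ± 0.62 in MUG-Chor1 controls and 3.27 ± 0.43 in U-CH1 controls (SD, n = 3 each; log2 1.21 ± 0.32, SE; adjusted p = 0.0241).

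The remaining 6 members did not pass between the untreated lines. DUSP4 was at log2 0.79 (adjusted p = 0.0918) and passed without MUG-Chor1 control 3 (log2 1.02, adjusted p = 0.0350). ETV4 was at -0.51 (adjusted p = 0.101), PHLDA1 at -0.48 (adjusted p = 0.132), SPRY2 at -0.37 and ETV5 at 0.01, beside ETV1 at -0.61. All 3 MUG-Chor1 controls lay below all 3 U-CH1 controls for 6 members, ETV1, ETV4, SPRY1, SPRY4, DUSP6 and PHLDA1 (background 18.2%), and above them for 1, DUSP5 (background 18.1%). The median difference of the members was -0.49, and that of all genes tested -0.04. The calls of SPRY4 and DUSP5 ended without some control arrays. Without MUG-Chor1 control 1 the adjusted p was 0.0559 for SPRY4 and 0.0615 for DUSP5, and without MUG-Chor1 control 2 it was 0.0521 and 0.0803. That of DUSP5 also ended without U-CH1 control 1 (adjusted p = 0.101) or control 3 (adjusted p = 0.0711). DUSP6 and SPRY1 passed in all 13 alternatives tried.

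**Figure D3:**
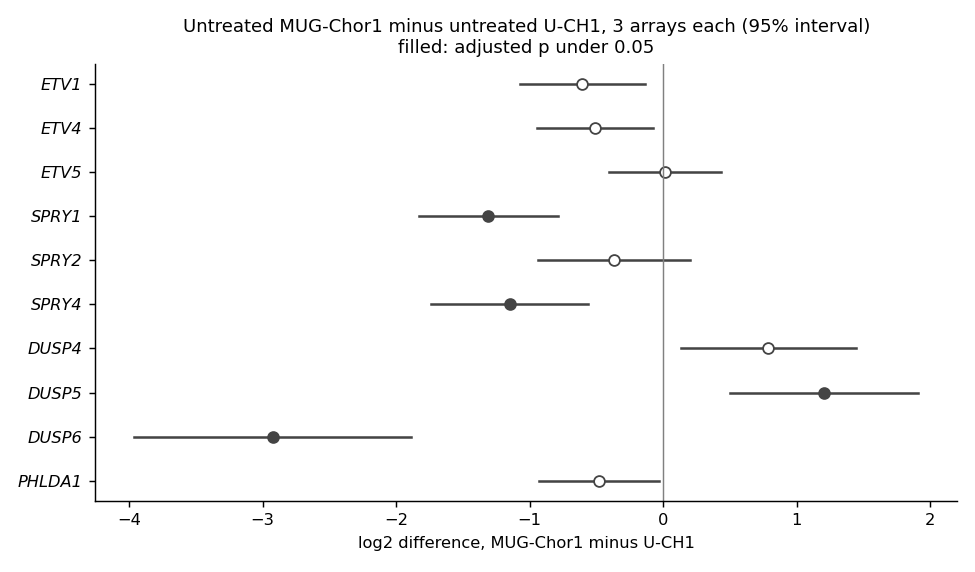
Log2 difference between untreated MUG-Chor1 and untreated U-CH1 (horizontal axis, MUG-Chor1 minus U-CH1, 3 arrays each) for the 10 genes, with 95% intervals from limma and filled points for an adjusted p under 0.05. DUSP6 (-2.93), SPRY1 (-1.31) and SPRY4 (-1.15) lie lower in MUG-Chor1 and DUSP5 (1.21) higher.

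Among the tested genes upstream of ERK, EGF was the single one to pass with TNF, in MUG-Chor1. The background of calls was 2.88% of genes tested in MUG-Chor1, 1.27% in U-CH1 and 2.48% across both lines. For unadjusted p under 0.05 it was 7.45% higher and 5.17% lower in MUG-Chor1, and 6.99% higher and 3.80% lower in U-CH1. Of 18 tested FGF ligands and receptors, 0 passed the limma test with TNF in MUG-Chor1 (1 higher and 1 lower at unadjusted p under 0.05), 0 in U-CH1 (1 higher) and 0 across both lines (1 higher and 2 lower). FGF2, a ligand that many tumour cells secrete, had the smallest p in MUG-Chor1, with 5.93 on the TNF array against 4.28, 3.97 and 5.40 in controls (log2 1.38, adjusted p = 0.206). Of 5 tested genes of EGFR and its ligands, EGF fell in MUG-Chor1, to 4.56 on the TNF array, against 6.89, 6.58 and 6.94 in controls (log2 -2.24 ± 0.34, SE; adjusted p = 0.00565), and 0 passed in U-CH1 (0 at unadjusted p under 0.05). Of 19 tested genes of the RAS-RAF-MEK-ERK cascade, 0 passed the limma test in MUG-Chor1 (2 higher at unadjusted p under 0.05), in U-CH1 (1 lower) or across both lines (3 higher). PEA15, which holds ERK in the cytoplasm, had the smallest p across both lines (log2 1.04, adjusted p = 0.0846), and MAP2K1, which encodes the ERK kinase MEK, in MUG-Chor1 (log2 0.79, adjusted p = 0.161). The list medians were -0.03, -0.20 and 0.17 in MUG-Chor1 and 0.02, 0.03 and 0.05 in U-CH1, for FGF, EGFR and cascade genes in that order. Between untreated lines FGFR2 was higher in MUG-Chor1 (log2 0.99; limma adjusted p = 0.0494) and FGF2 lower (-1.33). FGFR2 read 4.09, 3.90 and 2.83 in MUG-Chor1 controls, against 2.84, 2.65 and 2.36 in U-CH1 controls, so the lines overlapped. EGF (1.36) and BTC (0.99) were higher in MUG-Chor1 and TGFA (-1.93) and EGFR (-1.19) lower. The cascade genes SHC1 (-1.58), MAP2K1 (-0.89) and KSR1 (-0.87) were lower. The background between untreated lines was 10.3% higher and 8.57% lower.

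Among 20 other feedback and output genes of the pathway, 3 fell in MUG-Chor1, 1 fell in U-CH1 and none rose in either (8 lower and 0 higher in MUG-Chor1, and 3 lower and 5 higher in U-CH1, at unadjusted p under 0.05). Over all genes tested, 1.41% were called lower in MUG-Chor1 and 0.359% in U-CH1. At unadjusted p under 0.05, the backgrounds were 5.17% lower and 7.45% higher in MUG-Chor1, and 3.80% lower and 6.99% higher in U-CH1. The transcription factor genes FOS and EGR1, which ERK induces within minutes, were the largest. FOS fell by 4.91 in MUG-Chor1 (adjusted p = 0.000406) and by 3.09 in U-CH1 (adjusted p = 0.0126). EGR1 fell by 4.71 in MUG-Chor1, to 3.75 on the TNF array, against 8.38, 8.52 and 8.50 in controls, and stood at 4.19 on the U-CH1 TNF array, against 4.54, 4.37 and 5.38. LRIG3, a leucine-rich repeat gene, fell by 1.78 in MUG-Chor1. Across both lines FOS, LRIG3 and the ephrin receptor gene EPHA4 fell, the last by 0.96 (adjusted p = 0.0485). Between untreated lines 7 of the 20 were higher in MUG-Chor1 (background 10.3%) and 2 lower (background 8.57%). EGR1 (log2 3.70), MYC (2.73) and LRIG1 (1.50) led upwards and EPHA4 (-1.65) downwards. DUSP6, SPRY1 and SPRY4 thus stood lower in untreated MUG-Chor1, in which EGR1 and MYC stood higher.

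Other phosphatases and ETS factors were divided. Among all genes tested, calls with TNF were 1.47% higher and 1.41% lower in MUG-Chor1. They were 0.913% higher and 0.359% lower in U-CH1, and 1.55% higher and 0.930% lower across both lines. At unadjusted p under 0.05 in MUG-Chor1, 7.45% were higher and 5.17% lower. Of 10 other dual-specificity phosphatases, DUSP10, which acts on JNK and p38, rose across both lines (log2 1.47 ± 0.28, SE; adjusted p = 0.0229), with 8.28 on the MUG-Chor1 TNF array against 7.05, 7.52 and 6.82 in controls, and 5.81 on the U-CH1 TNF array against 4.13, 3.53 and 4.43. DUSP22 fell across both lines (log2 -0.91, adjusted p = 0.0303). In U-CH1 DUSP7, an ERK phosphatase, rose by 1.34 (adjusted p = 0.0491), and in MUG-Chor1 0 of the 10 passed the limma test (2 higher and 1 lower at unadjusted p under 0.05). Of 24 tested other ETS factors and Capicua-related genes, ETV6, an ETS repressor, rose across both lines (log2 1.06, adjusted p = 0.0297) and in U-CH1 (log2 1.41, adjusted p = 0.0358), and ELF4 rose across both lines (log2 0.86, adjusted p = 0.0470). ETS2 fell in U-CH1 (log2 -1.25, adjusted p = 0.0496). In MUG-Chor1 0 of the 24 passed the limma test (2 higher and 2 lower at unadjusted p under 0.05). CIC itself read 5.08 on the MUG-Chor1 TNF array against 5.67, 5.71 and 4.52 in controls, and 5.07 on the U-CH1 TNF array against 5.29, 5.03 and 4.73, inside the control range in each line. Between untreated lines DUSP10 (log2 3.10) and DUSP1 (2.26) were higher in MUG-Chor1 and DUSP16 (-0.96) lower. Of the 24 ETS and Capicua-related genes 2 were higher (background 10.3%) and 3 lower (background 8.57%), ELF1 furthest up (1.77) and ELK3 furthest down (-0.95).

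**Figure D4:**
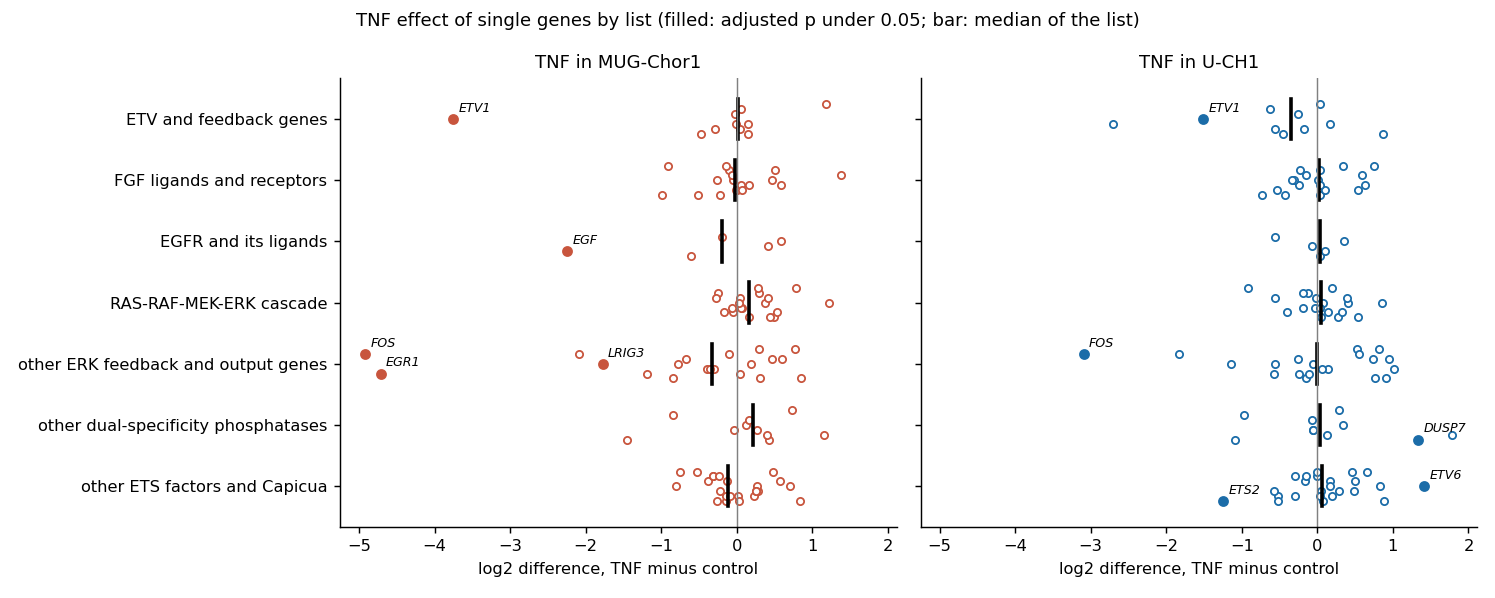
Log2 difference between the TNF array and the controls of its line (horizontal axis) for each tested gene of 7 lists, MUG-Chor1 on the left and U-CH1 on the right, with filled, named points for an adjusted p under 0.05 and a bar at the list median. ETV1 stands apart from the other members in MUG-Chor1 (-3.75), where FOS (-4.91), EGR1 (-4.71), EGF (-2.24) and LRIG3 (-1.78) also carry filled points.

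The 3 patterns nearest to ETV1 over the 8 arrays included 2 of the chordoma markers. Patterns were compared as values centred on each gene's own mean, by the root-mean-square distance. KRT19, a simple epithelial keratin of chordoma, lay at 0.31, ACAN, the aggrecan gene, at 0.35 and GJA1, which encodes a gap junction connexin, at 0.36, against a root mean square of 1.38 for ETV1 around its own mean. KRT19 read 6.74 on the MUG-Chor1 TNF array against 9.83, 9.86 and 9.76 in controls, and 9.49 on the U-CH1 TNF array against 10.53, 10.45 and 10.58. ACAN read 4.33 on the MUG-Chor1 TNF array against 8.16, 8.34 and 8.75, and 7.93 on the U-CH1 TNF array against 9.07, 8.29 and 8.78. These genes share with ETV1 the single TNF array of each line, so the likeness rests largely on the MUG-Chor1 TNF array. The nearest patterns to DUSP6 were SLC24A3 (0.45), CPM (0.50) and WNT8A (0.52), against 1.51 for DUSP6 around its mean, all high in U-CH1 controls and lower on the other 5 arrays. SPRY4 lay nearest to AMD1 (0.09), RRM2B (0.13) and PHLPP2 (0.15), against 0.66. ETV4 and ETV5 varied little, at 0.27 and 0.24 around their means, and their nearest genes (MIR1910, ZNF384 and PFKL for ETV4, and RCN2, CAPN2 and PCK2 for ETV5) lay within 0.10.

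**Figure D5:**
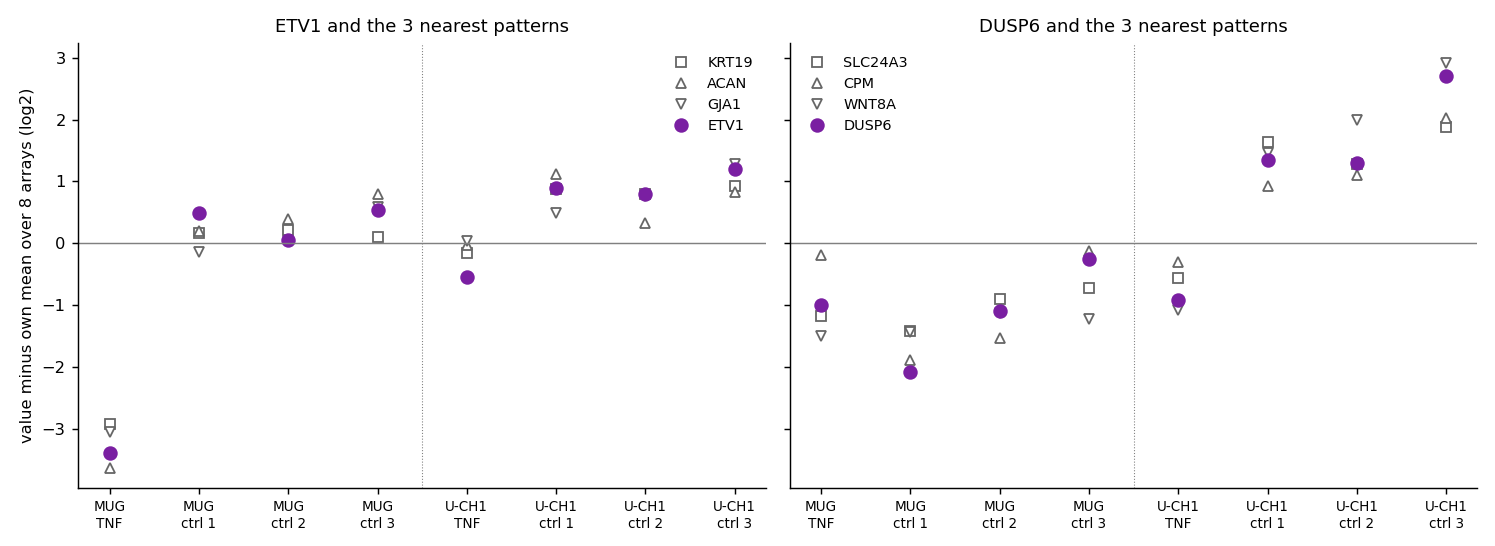
Values centred on each gene's mean over the 8 arrays (log2, vertical axis) for ETV1 (left) and DUSP6 (right) as filled circles and the 3 genes of nearest pattern as open symbols, with MUG-Chor1 arrays left of U-CH1 arrays. ETV1, KRT19, ACAN and GJA1 are lowest on the MUG-Chor1 TNF array, and DUSP6, SLC24A3, CPM and WNT8A are highest on the 3 U-CH1 controls.

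Among marker lists of cell types, all 8 chordoma markers were lower on the MUG-Chor1 TNF array, and the other lists were divided. Of these 8, 6 passed the limma test there (background 1.41% downwards and 1.47% upwards). The mean level of the 8 was 5.38 on the MUG-Chor1 TNF array against 7.62 to 7.97 in its controls. In U-CH1 0 of the 8 passed the limma test (3 lower at unadjusted p under 0.05), with a mean of 7.44 on the TNF array against 7.78 to 8.27. Fibroblast markers were divided in MUG-Chor1. Of 7 tested, FAP, LUM and DCN rose, while THY1 (log2 -0.81), COL1A1 (-0.57), PDGFRB (-0.56) and COL1A2 (-0.07) had lower values on the TNF array and did not pass. The list median was -0.07, and the list mean was 4.74 on the TNF array against 3.30 to 4.01 in controls. LUM rose by 3.65 (log2). FAP read 5.71 on the TNF array against 1.98, 2.29 and 1.63 in controls, and DCN 3.11 against 1.48, 1.46 and 1.58. The controls of FAP and DCN lay below the median of all probe sets, so the sizes of their differences are not exact. In U-CH1 0 of these 7 passed the limma test (0 at unadjusted p under 0.05; list mean 4.17 against 3.93 to 4.22). Leukocyte markers averaged 4.42 on the MUG-Chor1 TNF array against 4.01 to 4.23, and 4.77 on the U-CH1 TNF array against 4.08 to 4.09, with 0 of 4 tested past the limma threshold in either line and CD68 and ITGAM higher across both lines, ITGAM with 4 of 6 controls below the median of all probe sets (2 higher in MUG-Chor1 and 3 higher in U-CH1 at unadjusted p under 0.05). Endothelial markers averaged 2.95 on the MUG-Chor1 TNF array against 3.65 to 3.84 (KDR fell, 1 of 4), and 3.04 on the U-CH1 TNF array against 2.99 to 3.20. Between untreated lines, 2 chordoma markers were lower in MUG-Chor1, 1 fibroblast marker was higher and 1 lower, 1 endothelial marker was higher, and 0 leukocyte markers passed the limma test (1 lower at unadjusted p under 0.05). Over all genes tested, 10.3% were called higher and 8.57% lower between these lines. The part of these shifts in the fall of ETV1 was not tested. On bulk arrays, fewer cells of a kind and less RNA per cell cannot be told apart.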

How the data were processed

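Whole-transcript arrays measured total RNA of 8 samples. The authors deposited 1 log2 value per probe set and array, made with RMA, and Transcriptome Analysis Console is also named, both without versions, per the submitters' processing notes. The log base, not stated, was taken as log2 from RMA and from values between 0.0648 and 12.7. RMA usually equalises arrays, so a shift of all genes would not show, and no detection call was used. Of 53617 probe sets, 23871 had 1 symbol in the platform annotation, 1842 several and 27904 were not listed there; of those with 1 symbol, 22569 matched a RefSeq gene (GRCh38.p14) by Entrez identifier. For genes with several probe sets the brightest on average was used.

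Genes exceeding the overall median on 1 array or more were tested with limma 3.58.1 (R 4.3.3; lmFit, eBayes), two-sided, Benjamini-Hochberg over all 16986. Fitting the 4 group means (residual degrees of freedom: 4) gave each line's TNF effect, their difference and the control comparison. An additive model (5 residual degrees of freedom) gave TNF across lines. Intervals are 95%. The scripts were tested on data drawn with known changes. The members and lists were chosen with earlier results of these data known. Named were all 10 members, TNFAIP3 and the 3 nearest patterns of 5 members. From the lists, up to 4 called genes by size, or the smallest p, were chosen per list and comparison. Not all of these are printed, while every tested fibroblast marker is. PTPRC and CIC were added after their values were seen. Alternatives covered the filter, probe set choice, normalization, variance model, samples fitted, a replicate block and leaving out arrays.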

Additional observations from a re-analysis of the deposited data

Results flagged for a closer look

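Among the genes named here, 5 differed between the lines in their TNF effect by the limma test of that difference (adjusted p under 0.05, MUG-Chor1 minus U-CH1), and none of them is a member of the ETV and feedback set. EGR1 differed by -4.14 (log2; adjusted p = 0.0102), ACAN by -3.31 (adjusted p = 0.0211), CD24 by -2.47 (adjusted p = 0.0238), KRT19 by -2.05 (adjusted p = 0.0364) and FAP by 3.95 (adjusted p = 0.00336). ACAN and KRT19 are also the genes nearest to ETV1 in pattern. FAP lay below the median of all probe sets on all 6 controls (1.63 to 2.29) and on the U-CH1 TNF array (1.75), so the size of its difference is not exact. EGR1 read 4.37 to 5.38 in U-CH1 controls and 8.38 to 8.52 in MUG-Chor1 controls, and 4.19 and 3.75 on their TNF arrays. For EGR1 the lines thus lay further apart without TNF than on the TNF arrays. Each of the 5 effects rests on 1 TNF array a line.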

How the results depend on the processing

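Of 610 recomputed member values, 570 kept their direction and their side of the threshold, 24 turned sign (none of them past the threshold), 11 lost and 5 gained a call. ETV1 passed in all 13 alternatives across both lines (log2 -3.75 to -1.51) and in all 12 in MUG-Chor1 (-3.90 to -3.66; adjusted p up to 0.00535), but in 7 of 12 in U-CH1. For the difference of the TNF effects, 1 member passed with quantile normalization and 1 with an intensity trend, against 0. Leaving out 1 array in turn gave 0 to 2 members in U-CH1 and 2 to 5 between control lines. Over all genes it gave 284 to 664 calls in MUG-Chor1, 104 to 329 in U-CH1, 199 to 489 across both lines, 38 to 152 for the difference and 2123 to 3090 between control lines; with MUG-Chor1 arrays alone 296 genes passed there, against 489. Fewer arrays leave fewer degrees of freedom, and other causes were not tested. Without the TNF array of 1 line, the fit across both lines repeats the effect of the other line. The values of -3.75 and -1.51 for ETV1 across both lines are such repeats and add no separate result. Sign turns came from small differences. With quantile normalization SPRY2 was -0.029 and SPRY4 0.0023 in MUG-Chor1, PHLDA1 -0.027 in U-CH1 and ETV5 -0.024 between control lines. Leaving out 1 array, MUG-Chor1 values ran from -0.024 to 0.14 for ETV5, -0.064 to 0.095 for SPRY2, -0.21 to 0.29 for SPRY4, -0.57 to 0.045 for DUSP5 and -0.32 to 0.59 for DUSP6. U-CH1 values ran from -0.36 to 0.058 for DUSP5 and -0.076 to 0.12 for PHLDA1. Across both lines they ran from -0.62 to 0.056 for ETV5, -0.55 to 0.039 for SPRY2, -0.012 to 0.22 for SPRY4 and -2.71 to 0.15 for DUSP6, the last of each pair but SPRY4 without the U-CH1 TNF array. The difference of effects ran from -0.37 to 0.13 for SPRY4, -0.24 to 0.28 for DUSP4 and -0.39 to 0.22 for DUSP5, and ETV5 between control lines from -0.073 to 0.095. Controls share numbers across lines, but deviations of same-numbered controls correlated at 0.043, -0.057 and 0.16, so the numbers were not taken to pair them; with the replicate block 4 members and 3248 genes passed, against 4 and 3209. Without detection calls, ETV4 and SPRY1 in MUG-Chor1, below the median of all deposited values, have no readable order.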
